A study of Rattus norvegicus with 24 samples.

Results

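The voltage-gated and related ion channels were taken as every gene on the array whose symbol begins with Kcn, Cacn or Clcn, or with Scn and a digit: the potassium channels with their auxiliary subunits, the voltage-gated calcium and sodium channels, and the chloride channels and exchangers of the Clcn family. These were 142 genes with 199 probes, out of 21654 named genes and 30367 probes. Each gene was represented by its probe with the highest mean Cy3 signal, and its other probes, which 47 of the genes had, served as a check. The series measured total RNA from peripheral blood of Sprague Dawley rats on 24 2-colour Agilent arrays, 1 rat per array and 4 per group. The groups were C-G0, C-G1 and C-G2, injected with saline, and LPS-G0, LPS-G1 and LPS-G2, injected intravenously with E. coli lipopolysaccharide (LPS, a bacterial endotoxin) at 10 mg per kg to induce enteritis. G0 stands for the semi-synthetic control diet, and G1 and G2 for that diet plus beta-glucan from oats, of high molecular weight in G1 and of low molecular weight in G2. All rats were male, 8 weeks old at the start, fed these diets for 6 weeks, and bled by cardiac puncture. In LPS-G0 the titles and source names of replicates 3 and 4 said LPS while their characteristics field said control, and both were kept as LPS-G0.

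Ion channels are membrane proteins that let selected ions pass. Kcn genes encode potassium channels, which in blood cells set the membrane potential and with it the driving force for calcium entry; the calcium-activated channel Kcnn4 is the Gardos channel of red cells and, with the voltage-gated Kcna3, a main potassium channel of T lymphocytes. Most Scn and Cacn genes are known from nerve, heart and skeletal muscle, whereas the Clcn family splits into plasma membrane channels, which are largely renal or muscular, and chloride-proton exchangers of endosomes and lysosomes, Clcn3 to Clcn7, which sit largely in intracellular membranes.

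The probes themselves are shown first because several results turn on which probe of a gene was read. All are 60 bases long, and positions are those of the array files (rat genome rn4); their place within exons or untranslated regions was not annotated here. Both Kcnn4 probes, at chr1:79625914-79627647 (a span longer than the probe) and chr1:79627673-79627732 on the plus strand, were detected on 24 of 24 arrays.

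Kcnn4 probe 1: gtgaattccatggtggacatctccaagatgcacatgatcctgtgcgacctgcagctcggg
Kcnn4 probe 2: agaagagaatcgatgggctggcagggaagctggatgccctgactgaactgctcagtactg

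Cacna1g was read by a probe at chr10:83043933-83043992 on the minus strand, and was detected on 23 arrays. This probe ends in a stop triplet (capitals), with no earlier stop triplet in the same frame. The coding frame of the gene was not checked. Its other probe, at chr10:83044389-83044448, was detected on 3. The Clcn3 probe used, at chr16:32517394-32517453 on the plus strand, also ends in such a triplet and was detected on 24 arrays. The other Clcn3 probe, at chr16:32518420-32518479, was detected on 3.

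Cacna1g, probe used: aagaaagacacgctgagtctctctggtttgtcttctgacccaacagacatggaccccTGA
Cacna1g, other probe: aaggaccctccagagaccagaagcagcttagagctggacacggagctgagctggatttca
Clcn3, probe used: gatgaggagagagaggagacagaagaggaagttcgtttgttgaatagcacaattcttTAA

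Both bright Kcng1 probes were purine repeats. Of the 58 overlapping triplets in a probe, each of them held only 6 different ones, and 0.0790% of all probes on the array held so few. Their bases 31 to 60 are shown with the longest run of GGA, GAG or AGG triplets in capitals. The files align these probes to chr3:159427597-159427643 and chr3:159427597-159427617 on the minus strand, both spans shorter than the probes. The remaining pair of Kcng1 probes, with 40 different triplets each, was detected on 2 arrays and on 0.

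Kcng1, probe used: GGAGGAGGAGGAGGAagaggaggaggagga
Kcng1, next brightest probe: GAGGAGGAGGAGGAGGAGgaagaggaggag

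The Cacna1i probes share 43 of their 60 bases, so that their agreement is not that of separate probes. The first 30 bases of the probe used (chr7:118681461-118681520, plus strand) and the last 30 of the other (chr7:118681478-118681537) are given with the shared bases in capitals.

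Cacna1i, probe used: gctacccgctatcctccCGCCTGCCCCATC
Cacna1i, other probe: AGGAGCCAGGGAGcagacagcaatactttg

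Few channel genes were detected throughout. A probe was counted as detected on an array when its Cy3 spots were flagged well above background by the scanner software. Of the 142 channel genes, 13 (9.15%) were detected on all 24 arrays, against 24.9% of the named genes on the array; 18 were detected on 12 to 23 arrays, 62 on 1 to 11, and 49 (34.5%, against 29.3% of named genes) on none. In the Cy5 channel, by the labels the common reference, pooled from blood RNA of rats of the same experiment, 35 channel genes (24.6%) were detected on all arrays, against 45.2% of named genes. A gene that was not detected may still be expressed below what this channel resolves.

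By family, the Clcn genes led with 3 of 9 on all 24 arrays: Clcn3, Clcn6 and Clcn7, which encode endosomal and lysosomal chloride-proton exchangers. The muscle chloride channel Clcn1 was detected on 0 arrays. The calcium- and sodium-activated potassium channels had 2 of 7, Kcnn4 and Kcnma1 (the large-conductance calcium-activated channel), with the small-conductance Kcnn3 on 23. The Kcnk leak channels had 2 of 14, Kcnk6 and Kcnk12, with Kcnk5 on 23 and Kcnk7 on 22.

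Of 40 voltage-gated potassium channel genes, 4 were detected on all arrays, among them Kcnh3, Kcng1 and Kcnv2. The auxiliary subunit Kcnab1 was the 1 of 17 potassium channel auxiliary subunits on all 24, and among 10 calcium channel pore subunits Cacna1i, a T-type channel, was on 24 and Cacna1g (T-type) and Cacna1a (P/Q-type) on 23 each. None of the 15 inward rectifiers, 14 sodium channel subunits or 16 auxiliary calcium channel subunits was detected on every array.

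**Figure D1:**
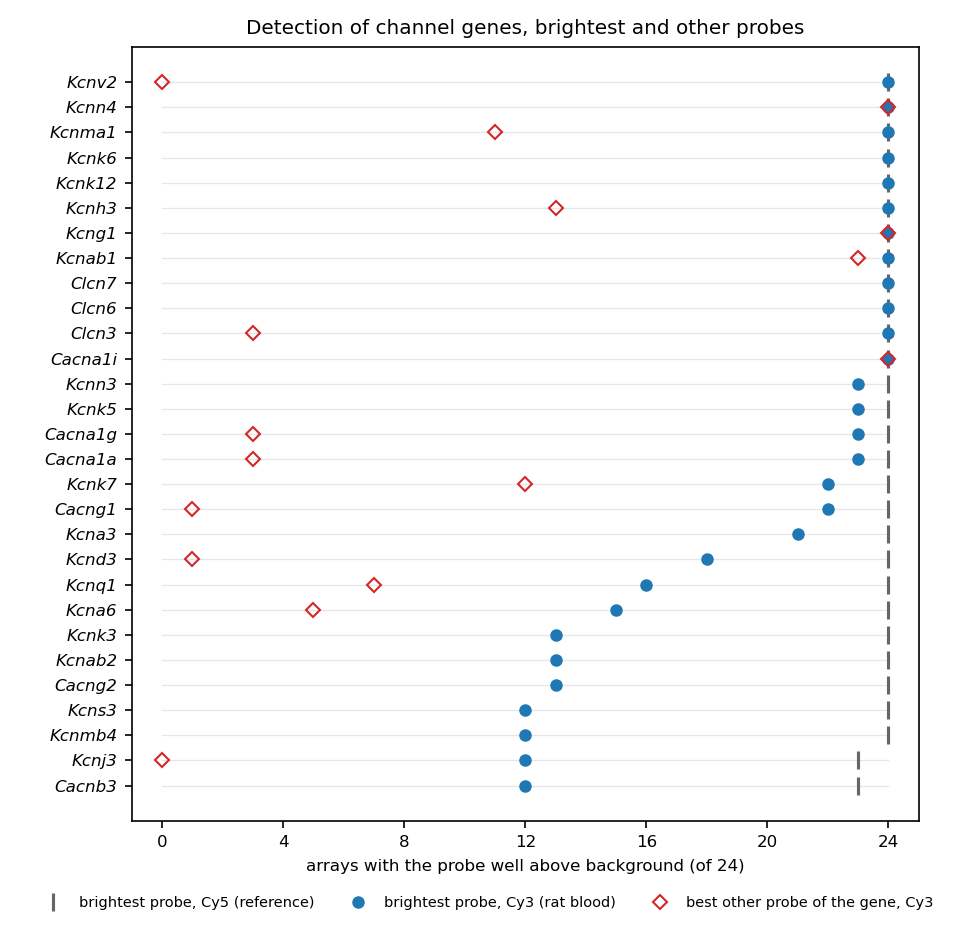
Number of arrays (of 24, x axis) on which each of 29 channel genes detected on 12 or more arrays was well above background: filled circles for the probe used in Cy3 (rat blood), vertical bars for the same probe in Cy5 (common reference), open diamonds for the best other probe of the gene in Cy3, where it has one. Kcnn4, Kcnab1, Cacna1i and Kcng1 have a second probe on 23 or 24 arrays, whereas the other probes of Kcnv2, Clcn3 and Cacna1g were on 0 to 3.

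Agreement between probes sorted these genes further. Of the 13 genes on all arrays, 9 had several probes, and in 2 of them, Kcnn4 and Cacna1i, every probe was detected on all arrays. Over all named genes detected on 24 arrays with several probes, this held for 31.9% (444 of 1394). Kcnab1, the beta subunit of Kcna-type channels, came close, with its 2 probes on 24 and 23 arrays. For Kcnma1 the other probes were on 11 and 0 arrays, for Kcnh3 on 13, for Clcn3 on 3, and for Kcnv2 on 0. Clcn6, Clcn7, Kcnk6 and Kcnk12 had 1 probe each. Why probes of a gene differed was not tested.

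Several channels known from leukocytes were detected on fewer arrays. Kcna3, the voltage-gated channel of T lymphocytes, was detected on 21 arrays, with 2 of 4 in C-G1 and 3 of 4 in C-G0, and on 5 of the 8 arrays of slide 2. Kcnab2, the beta subunit that pairs with it, was on 13 arrays, Kcnq1 on 16, Kcnk13 on 6 and Kcnh2 on 3. The inward rectifiers Kcnj2, known from macrophages, and Kcnj15 were on 1 array each, Clcn5 on 2, and Kcne3 and Scn8a on 0. Cacna1e was on 9, Cacnb4 on 7, and Cacna2d4 on 0.

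Detection differed by slide. The 24 arrays lay on 3 slides of 8, each with all 6 groups, and each slide had its own scan time. The number of channel genes detected per array was 26 to 39 on slide 1, 17 to 26 on slide 2 and 34 to 63 on slide 3. By group the medians lay between 29.5 (C-G1) and 38.5 (LPS-G0), with ranges that all overlapped. Of the 4 arrays of a group, 2 lay on slide 1 for the G0 diet, 2 on slide 2 for G1 and 2 on slide 3 for G2, so comparisons between diets are also given with the slide as a block. All probes together were well above background on 7786 to 15385 per array.

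Blood was the tissue by its markers: 5 of 5 red cell genes and 6 of 6 platelet genes on the array were detected on 24 arrays, as were 4 of 6 T cell, 3 of 5 B cell, 2 of 6 NK cell, 5 of 6 neutrophil and 4 of 6 monocyte genes. Of 6 heart muscle genes, checked because the blood was drawn from the heart, Actc1 was on all arrays and Nppa and Tnni3 were on none; of 5 nerve cell genes none was on all 24.

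Differences between groups are given as log2 of Cy3 over Cy5. By the labels the rat's own RNA carried Cy3 and the pooled reference Cy5, whereas the study's methods state the reverse. The labels were followed, and over 7074 probes detected everywhere in both channels the median SD within a group was 0.311 in Cy3 and 0.173 in Cy5, larger in Cy3 for 95.6% of probes. If the methods are right, every sign of a log2 ratio or of its difference below turns. All Cy3 counts of detection, above and below, are then those of the reference and the Cy5 counts those of the rats. The approximate Cy3 folds of dim channels given below would then describe the reference and not the rats. Group fits used limma over all probes detected on every array of at least 1 group, 10313 probes with 22 channel genes for C-G0 and the 3 LPS groups, and 10708 probes with 23 channel genes for all 6 groups. P-values were adjusted by Benjamini-Hochberg over all those probes. In bulk blood, fewer cells of a type and less RNA per cell cannot be told apart.

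After LPS on the control diet, channel genes did not pass the adjusted threshold. In LPS-G0 against C-G0, 0 of 22 channel genes had an adjusted p under 0.05 by limma, against 0.0097% of all probes (1 of 10313). By Tukey's test for this pair, with Benjamini-Hochberg adjustment over the same probes, the count was also 0. The study's methods name a one-way analysis of variance with Tukey's test as post-hoc, and that overall test was not run here. At an unadjusted limma p under 0.05 there were 4 (all probes 15.2%). Kcnh3, Cacna1g and Kcnk5 had higher values in LPS-G0 and Kcng1 a lower value (4.44%). The median log2 difference over the 22 was 0.26, against 0.03 over all probes.

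White cell markers moved in the same comparison. The NK cell markers had higher values in LPS-G0 in 5 of the 5 tested at an unadjusted p under 0.05 (median log2 difference 0.87), and their mean per array over 6 genes was -1.55 to 0.13 in C-G0 and -0.15 to 0.64 in LPS-G0. The neutrophil markers had lower values in 2 of 5 (median -0.53), with means per array of -0.42 to 0.13 and -0.92 to -0.35. None of either list passed the adjusted threshold, and their part in the channel values was not tested.

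Kcnh3, a voltage-gated channel of the ether-a-go-go family, had log2 ratios of 0.20, -0.36, 0.0005 and -0.18 on the C-G0 arrays and 0.43, 0.24, 0.56 and 0.66 on the LPS-G0 arrays. All LPS-G0 arrays lay above all C-G0 arrays. The difference was 0.56 ± 0.16 (SE), with an adjusted p of 0.218 in limma and an exact two-sided permutation p of 0.0286, the smallest that 4 against 4 can give. Groups did not overlap for 2 of the 22 channel genes (all probes 5.03%), Kcnh3 and the leak channel Kcnk6. Kcnk6 read 0.07, 0.44, 0.10 and 0.03 in C-G0 and -0.32, -0.08, -0.28 and -0.40 in LPS-G0, where all 4 values were the lower ones, but its adjusted p was 0.399.

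One array decided part of this comparison. C-G0 replicate 1 was the lowest of the 24 arrays for 23.5% of all probes tested. It was the highest for 13.2% of them. Among the 23 channel genes it was the highest array for 4 and the lowest for 1. Without it, 5 channel genes passed by limma: Cacna1g (log2 difference 0.74, adjusted p 0.0092), Kcnh3 (0.65, 0.0165), Kcnd3 (0.79, 0.0202), Clcn7 (0.61, 0.0308) and Cacng1 (0.84, 0.0446). On that array Cacna1g read 0.70, against -0.35, -0.25 and -0.09 on the other C-G0 arrays. Without C-G0 replicate 2 instead, the limma adjusted p-values of Cacna1g and Kcnh3 rose to 0.583 and 0.547. With array weights, which lower the weight of noisy arrays, 7 passed. The share of all probes passing with array weights or without C-G0 replicate 1 was not computed. These counts are therefore not shown to differ from those of probes in general.

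The comparison with calls was LPS-G1 against LPS-G0, the high molecular weight beta-glucan among LPS-treated rats. Of 22 channel genes, 3 passed an adjusted p of 0.05, all lower in LPS-G1 (all probes 8.93%, and 8.39% lower): Clcn7, Kcnma1 and Cacna1g. None of them also reached a 2-fold change (all probes 0.989%). At an unadjusted p under 0.05 there were 12 (all probes 26.9%), 10 with lower values (19.3%) and 2 with higher values, Clcn3 and Kcnk7 (7.59%). The median log2 difference over the 22 was -0.34, against 0.06 over all probes, and 15 of the 22 differences were negative (44.6% of all probes). Groups did not overlap for 9 channel genes (all probes 21.9%).

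Clcn7, the lysosomal chloride-proton exchanger that osteoclasts and macrophages also use, read 0.62, 0.23, 0.26 and 0.75 on the LPS-G0 arrays and -0.10, -0.64, -0.22 and -0.53 on the LPS-G1 arrays. All LPS-G0 arrays were positive and all LPS-G1 arrays negative. It fell by 0.84 ± 0.21 (SE) on the log2 scale, with a limma adjusted p of 0.0289 and an exact permutation p of 0.0286. Within slides 1, 2 and 3 the difference was -0.52, -0.69 and -1.28.

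Kcnma1, the pore of the large-conductance calcium-activated potassium channel, read 0.51, 0.53, 0.26 and 0.42 in LPS-G0 and 0.26, -0.40, -0.25 and -0.33 in LPS-G1. The groups touched at 0.26 and otherwise lay apart. It fell by 0.61 ± 0.17 (limma adjusted p 0.0376), and by 0.26, 0.59 and 0.75 within slides 1, 2 and 3. This is the value of the probe on 24 arrays; the gene's other probes did not enter the test.

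Cacna1g, the pore of a T-type calcium channel, read 0.71, 0.62, 0.33 and 0.39 in LPS-G0 and 0.17, -0.31, -0.33 and -0.19 in LPS-G1. Again no LPS-G1 array reached the lowest LPS-G0 array. It fell by 0.68 ± 0.20 (limma adjusted p 0.0446), and by 0.49, 0.65 and 0.59 within the slides. With the slide as a block the adjusted p-values of Clcn7, Kcnma1 and Cacna1g were 0.0529, 0.0538 and 0.0739, with differences of -0.76, -0.53 and -0.58, so that 0 channel genes passed. Calls were also 0 by Tukey's test and when the LPS-G0 arrays with conflicting labels were left out. The same held without any of 6 of the 8 arrays compared taken singly. The 3 genes nevertheless stayed lower in LPS-G1 throughout.

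Markers of some other cells also differed in the same comparison. The mean log2 ratio of the 5 red cell markers was 0.0034 to 0.15 on the LPS-G0 arrays and -0.41 to -0.0039 on the LPS-G1 arrays. Of the 5, 1 was called lower (8.39% of all probes). The heart muscle marker Actc1, the only 1 of its list that was tested, was called lower at -0.56. Nppa and Tnni3 were undetected on every array. The B cell and neutrophil means lay higher in LPS-G1. The B cell mean over 5 genes was -0.75 to -0.20 on the LPS-G0 arrays and -0.17 to 0.12 on the LPS-G1 arrays, without overlap, although 0 of the 3 B cell markers tested had an unadjusted p under 0.05 in limma. The neutrophil mean was -0.92 to -0.35 and -0.63 to -0.065, with 1 of 5 higher at that threshold (7.59% of all probes). Of 5 monocyte markers 1 was lower and 1 higher at it, and of 6 platelet markers 1 was lower (19.3% of all probes lower). T cell and NK cell markers had 0 at that threshold. The part of these markers in the channel values was not tested.

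Just above the threshold lay, among others, Cacna1i (log2 difference -0.38, adjusted p 0.0658) and Kcnh3 (-0.46, 0.0716), pore subunits of T-type calcium and ether-a-go-go channels. Kcnd3, an A-type potassium channel, gave -0.82 (0.0598), but it was above background on 4 of 4 LPS-G0 and only 2 of 4 LPS-G1 arrays, so that the size of this difference rests in part on arrays where it was not measured. The second, overlapping Cacna1i probe gave -0.62 with an adjusted p of 0.0295. Kcnn4, the channel with the best probe support, gave -0.51 ± 0.26 with 1 probe (adjusted p 0.221) and -0.45 ± 0.25 with the other (0.247). Its LPS-G0 arrays read 0.52, 0.63, -0.13 and 0.48 and its LPS-G1 arrays 0.39, -0.77, -0.21 and 0.05, which overlap.

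In the opposite direction, Clcn3, an endosomal exchanger, read -0.48, 0.15, -0.14 and -0.50 in LPS-G0 and 0.15, 0.28, 0.46 and 0.29 in LPS-G1. The LPS-G1 arrays were the higher ones except for a near tie at 0.15. The difference was 0.54 ± 0.25 with an adjusted p of 0.179. Kcnab1 was 0.50 ± 0.24 higher with 1 probe (adjusted p 0.186) and 0.31 ± 0.32 with the other (0.534). Thus the 3 Clcn genes measured on all arrays did not share a sign, with Clcn6 at -0.26 (adjusted p 0.377).

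**Figure D2:**
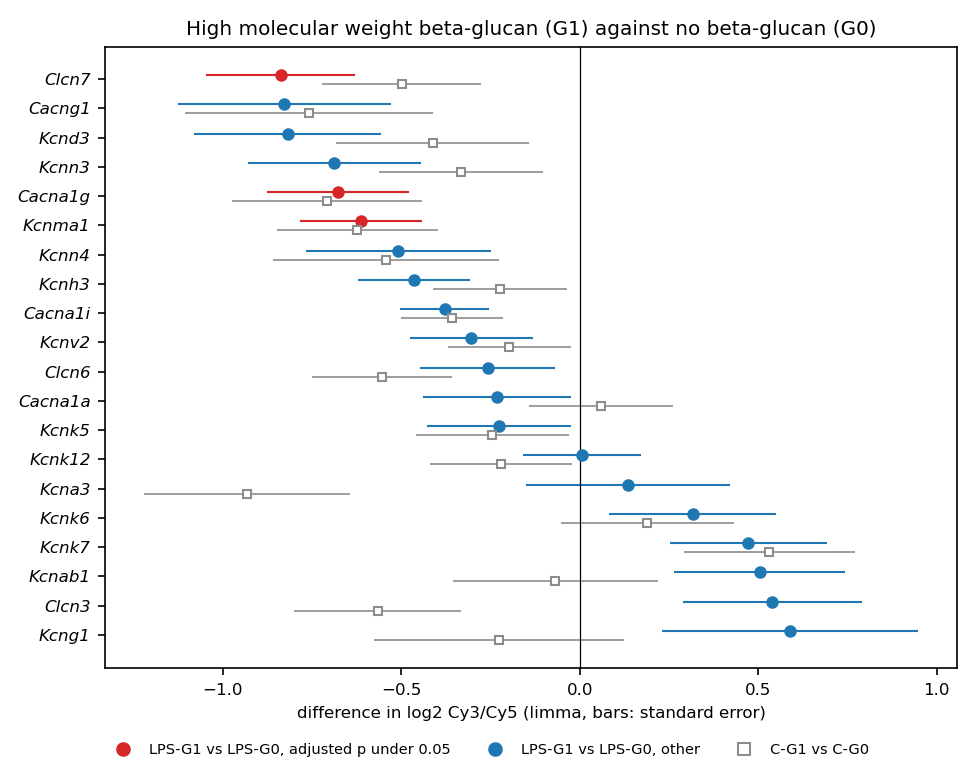
Difference in log2 Cy3/Cy5 (x axis) between the high molecular weight beta-glucan diet and the control diet for 20 of the channel genes tested, ordered by the difference in LPS-treated rats (circles, red where the adjusted p is under 0.05), with saline-treated rats as open squares; bars are standard errors from limma. Clcn7, Kcnma1 and Cacna1g are the red circles at -0.84, -0.61 and -0.68; Clcn3 and Kcna3 have squares at -0.57 and -0.93 with circles to the right of 0.

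The same diet without LPS, C-G1 against C-G0, contrasted other rats than LPS-G1 against LPS-G0. Both comparisons shared the pooled reference and the layout of the diets over slides. Each fit also drew its spread from arrays of the other comparison. None of 23 channel genes passed the adjusted threshold by limma (all probes 0.028%), and 11 had an unadjusted p under 0.05 (all probes 27.9%), 10 of them with lower values in C-G1 (15.8%) and Kcnk7 with a higher value (12.1%). The median log2 difference was -0.36, against 0.02 over all probes, with 19 of 23 negative (48.6% of all probes). At the same unadjusted threshold 3 of 5 red cell markers were lower (median difference -1.01), 3 of 5 monocyte markers higher (0.61) and 2 of 5 NK cell markers higher (0.62). The monocyte mean per array was -1.29 to 0.06 in C-G0 and 0.0032 to 0.15 in C-G1, and the NK cell mean -1.55 to 0.13 and -0.66 to 0.43. The part of these markers was not tested. With the slide as a block the median was -0.33 and 9 had an unadjusted p under 0.05 (all probes 23.4%).

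Kcna3 had the smallest p, with log2 ratios of 1.47, 0.85, 0.56 and -0.0023 in C-G0 and -0.0098, -0.58, -0.49 and 0.23 in C-G1. Only the C-G0 array on slide 3 fell among the C-G1 values. Kcna3 was above background on 3 of 4 C-G0 and 2 of 4 C-G1 arrays, and the arrays without it were those of both groups on slide 2, so the difference within slide 2 is between arrays on which it was not measured. The difference was -0.93 ± 0.29 (adjusted p 0.108), at -1.17, -1.09 and 0.23 within slides 1, 2 and 3, so slide 3 went the other way. Without C-G0 replicate 4, the slide 3 array, Kcna3 (-1.17, limma adjusted p 0.0184) and Clcn3 (-0.78, 0.0394) passed. The share of all probes passing in that fit was not computed.

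Clcn6 (-0.55 ± 0.20, adjusted p 0.131) and Cacna1i (-0.36 ± 0.14, 0.139) were the 2 of 23 whose groups did not overlap (all probes 7.04%). The 3 genes called among LPS-treated rats read -0.50 (Clcn7), -0.62 (Kcnma1) and -0.71 (Cacna1g, above background on 3 of 4 C-G1 arrays), with adjusted p-values of 0.158, 0.131 and 0.136.

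Across the 6 groups a pattern emerged in which C-G1 was low and LPS-G0 high. Of 23 channel genes, 16 had their lowest group mean in C-G1, against 29.7% of all probes tested, and 14 had their highest in LPS-G0, against 27.0%. Cacna1g ranged from a mean of -0.70 in C-G1 to 0.51 in LPS-G0, Kcnma1 from -0.48 to 0.43 and Kcnn4 from -0.46 to 0.37. Kcnk6 ran the other way, lowest in LPS-G0 (-0.27) and highest in C-G1 (0.35).

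A single array, C-G1 replicate 2 on slide 2, was the lowest of all 24 for 15 of the 23 channel genes, against 25.9% of all probes tested, and its median over them was -0.74. On it Cacna1g read -1.71, Kcnma1 -1.20 and Kcnh3 -0.98, each below every other array. Without it 11 of 23 had their lowest mean in C-G1 (all probes 20.8%) and 14 still had their highest in LPS-G0 (26.8%); with slide means subtracted the counts were 16 and 14. The red cell markers were also low in C-G1: their mean log2 ratio over 5 genes was -1.18 to -0.30 on the C-G1 arrays. It was 0.0034 to 0.15 on the LPS-G0 arrays (mean 0.094) and -0.15 to 0.39 on the C-G0 arrays (mean 0.11), so LPS-G0 was not their highest group. The part of these markers was not tested.

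**Figure D3:**
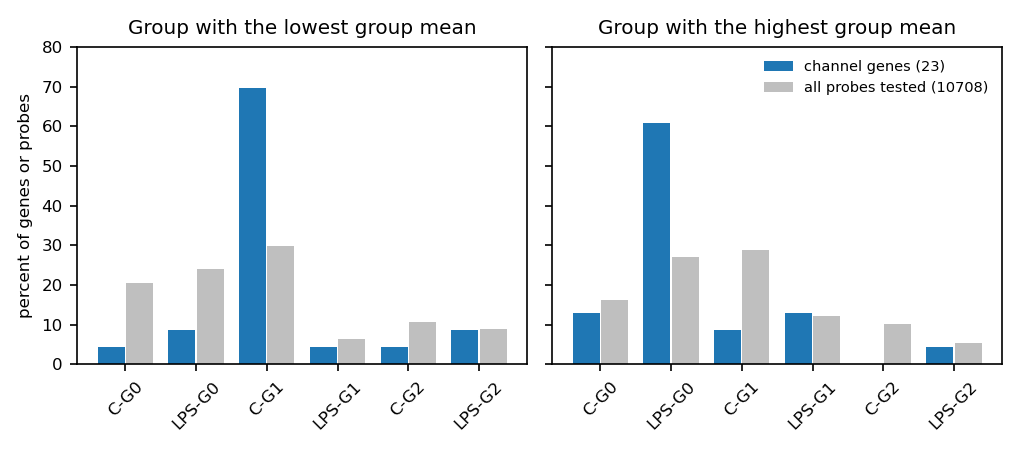
Percent (y axis) of the 23 channel genes (blue) and of all 10708 probes tested (grey) whose lowest (left) or highest (right) of the 6 group means falls in each group. C-G1 holds the lowest mean of 16 channel genes and LPS-G0 the highest of 14.

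**Figure D4:**
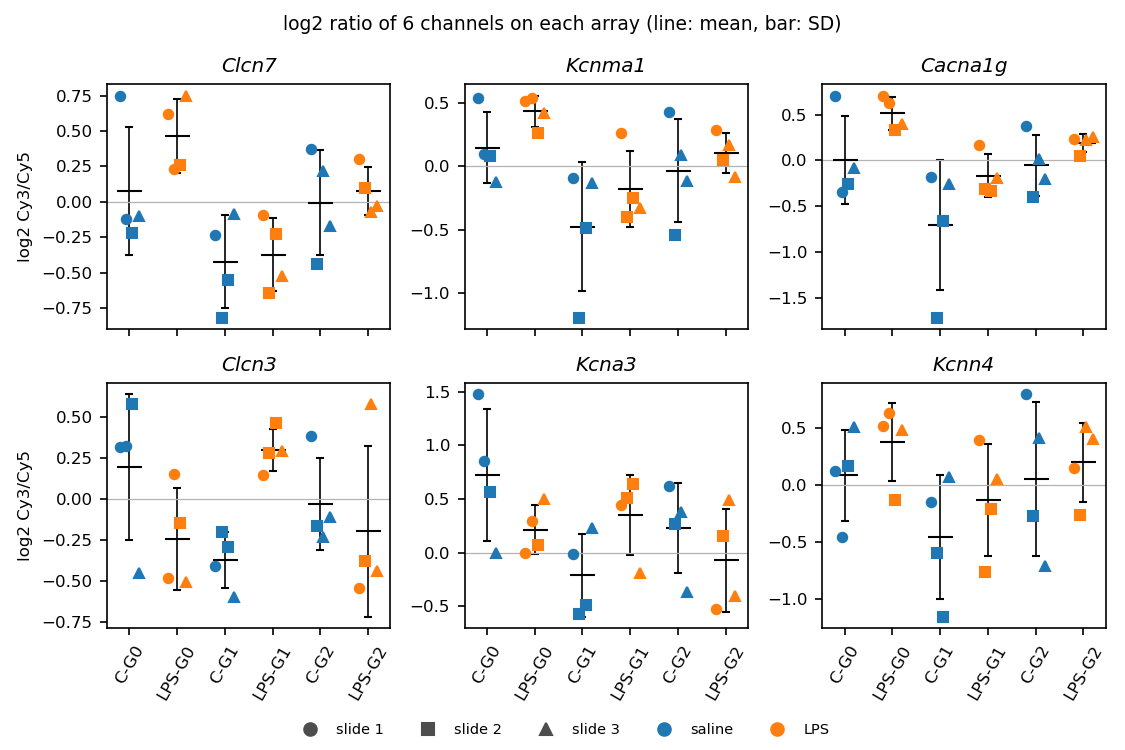
Log2 Cy3/Cy5 (y axis) of Clcn7, Kcnma1, Cacna1g, Clcn3, Kcna3 and Kcnn4 on each of the 24 arrays, by group; marker shape gives the slide, blue saline and orange LPS, the line the group mean and the bar the SD of 4 arrays. Clcn7 is above 0 on all LPS-G0 and below 0 on all LPS-G1 and C-G1 arrays, and the lowest point of Cacna1g is the C-G1 array at -1.71.

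The low molecular weight beta-glucan gave no channel call. In LPS-G2 against LPS-G0, 0 of 22 passed the adjusted threshold by limma (all probes 0%) or by Tukey's test. By limma 1, Kcnd3, had an unadjusted p under 0.05 (all probes 8.23%, of which 5.61% lower and 2.62% higher). Its difference was -0.58 ± 0.26, with 3 of 4 LPS-G2 arrays above background. Kcnh3 followed at -0.33 and Kcnk12 at 0.33, all 3 with an adjusted p of 0.597. The median was -0.23 (all probes -0.02), and 16 of 22 were negative (52.6% of all probes). With the slide as a block 0 passed, and 2 had an unadjusted limma p under 0.05 (all probes 5.91%). These were Kcnk12 at 0.42 (p 0.0121) and Kcnd3 at -0.60 (p 0.0430). Of the neutrophil markers 4 of 5 had higher values at the unadjusted threshold (median 0.71), with means per array of -0.92 to -0.35 in LPS-G0 and -0.25 to 0.39 in LPS-G2. The NK cell median was -0.52 with 0 of 5 at that threshold, and the part of both lists was not tested. In C-G2 against C-G0, 0 of 23 passed (all probes 0.028%), and 1 had an unadjusted p under 0.05 (13.3%, of which 7.84% lower and 5.41% higher): Kcng1, read by its repeat probe, at -1.0 ± 0.35 (adjusted p 0.252). The next brightest probe, which gave -0.96, is a repeat of the same kind, and the remaining pair of Kcng1 probes was above background on 0 arrays of both groups, so no other probe bears on this value. The groups overlapped for all 23 (2.62% of all probes did not overlap). Kcna3 was at -0.50 and Kcnk7 at 0.39, with adjusted p-values of 0.464 and 0.494. Of the 23 differences 16 were negative (47.3% of all probes), and 12 with the slide as a block. With that block 0 passed and 1 had an unadjusted limma p under 0.05 (all probes 12.3%).

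LPS on the beta-glucan diets was compared with saline on the same diet. In LPS-G1 against C-G1, 0 of 23 passed by limma (all probes 0.00934%) and 3 had an unadjusted p under 0.05 (2.81%), all with higher values, among them Clcn3 and Kcnk5. The difference was negative for 4 of the 23 (45.7% of all probes). Clcn3 read -0.41, -0.20, -0.29 and -0.59 in C-G1 and 0.15, 0.28, 0.46 and 0.29 in LPS-G1, every C-G1 array below 0 and every LPS-G1 array above it. Its difference was 0.67 ± 0.23, with an adjusted p of 0.95 and an exact permutation p of 0.0286, and at 0.56, 0.62 and 0.89 it had 1 sign in all slides. It was the only channel gene whose groups did not overlap (all probes 2.73%). In LPS-G2 against C-G2, 0 of 23 passed at either threshold (adjusted 0%, unadjusted 1.09% of all probes); the smallest p-values were those of Kcng1 (0.46), Kcna3 (-0.30) and Cacna1g (0.24).

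Whether LPS acted differently by diet was tested as an interaction. For G1 against G0, 0 of 23 passed by limma (all probes 0%), and 2 had an unadjusted p under 0.05 (3.01%): Clcn3 at 1.11 ± 0.33 (p 0.00282, adjusted p 0.999) and Kcna3 at 1.07 ± 0.41 (p 0.0155, adjusted p 0.999). For Clcn3 the LPS difference was -0.44 on G0 and 0.67 on G1, and for Kcna3 it was -0.51 and 0.56. Kcng1 followed at 0.82 (p 0.113). For G2 against G0, 0 passed (all probes 0%) and 1 had an unadjusted p under 0.05 (5.57%), Kcng1 at 1.27 ± 0.49 (p 0.0178, adjusted p 0.832), ahead of Kcnh3 (-0.53) and Kcnd3 (-0.58). An effect in 1 diet group and not in another was thus not shown to differ for any channel gene.

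The study's text or supplementary tables name 8 of these channels, and 7 of them lay near or below background, so only approximate folds are given. Where a group had no array above background, the brighter group's mean Cy3 signal was set against a floor for the dim group. On each array this floor was the larger of the probe's own signal and the lowest signal of any probe well above background. The brighter group's mean took in its own arrays that were not above background, so the folds are not strict lower bounds. Among LPS-treated rats, Kcng2, a modifier subunit of voltage-gated potassium channels, was detected on 2 LPS-G0 arrays and 0 LPS-G1 arrays. By this measure it was about 1.99-fold higher in LPS-G0. Kcnc4, a voltage-gated potassium channel, was on 1 and 0 (about 1.79-fold) and Scn7a, a sodium-sensing channel, on 2 and 0 (about 1.5-fold).

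Kcnj5, a G protein-gated inward rectifier, went the other way, on 0 LPS-G0 and 3 LPS-G1 arrays, about 2.49-fold higher in LPS-G1. Its other probe was on 0 in both. The dim Clcn3 probe, on 0 and 2 arrays, was about 2.05-fold higher in LPS-G1, beside the log2 difference of 0.54 from the bright probe. For LPS-G2 against LPS-G0, Kcnk2, a mechanosensitive leak channel, was on 0 and 2 arrays, about 1.83-fold higher in LPS-G0, with its other probes on 0. The 2 probes of Kcnmb2, a beta subunit of the Kcnma1 channel, differed. The brighter was on 3 and 2 arrays with log2 ratios 0.16 apart. The other was on 0 and 1, about 1.99-fold higher in LPS-G0. For Kcnj12 the value was under 1, so no fold is given. Over all 24 arrays these 7 genes were detected on 3 to 11.

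Other channels known from blood cells, outside these families, were looked at beside them. Of 34 genes such as store-operated, purinergic, TRP and intracellular calcium channels, 8 were on all 24 arrays, a share close to the 24.9% of named genes. They were Orai3 and Stim1 of store-operated calcium entry, the platelet ATP receptor P2rx1, Trpv2, the inositol trisphosphate receptor Itpr1, the scramblase Ano6, Lrrc8b and Clic1. Orai1 was on 23 and the proton channel Hvcn1 on 17, while 9 of the 34 were on 0 (29.3% of named genes). In LPS-G1 against LPS-G0, 12 of the 34 were tested and 0 passed by limma (all probes 8.93%). At an unadjusted p under 0.05 there was 1 (all probes 26.9%), Itpr1 at 0.63 (adjusted p 0.0723). The median of the 12 was 0.06, like that of all probes (0.06), against -0.34 for the 22 channel genes.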

How the data were processed

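Total RNA from whole blood of 24 rats was hybridised with a common reference. The deposited scanner files hold processed intensity values per spot (Agilent Feature Extraction 10.10.1.1 in the file headers, 10.7.3.1 in the submitters' processing notes; rn4), made by the authors with background subtraction and Lowess dye normalization, and log10 ratios of red over green. The deposited series table repeats these log10 ratios (1511424 of 1511424 values identical). Here control spots and outlier-flagged spots (679 to 1133 per array) were left out, log2 Cy3/Cy5 was taken, and spots of a probe were averaged, giving 30367 probes. A probe was detected when at least a share of 0.5 of its spots was flagged well above background, a flag that requires the signal to exceed background by 13 of its SDs. RefSeq accessions matched 183 of 199 channel probes, 180 under the same symbol (Kcne1l is now Kcne5 and Scn2a1 is Scn2a).

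Groups were compared with limma 3.58.1 (R 4.3.3), lmFit and eBayes, two-sided, with Benjamini-Hochberg adjustment; the fit was tested on simulated data. The fit of 4 groups served the comparisons the study made and the fit of 6 groups the rest. Single genes were also compared by an exact permutation test (70 splits). Replicates were separate rats. The number of arrays limits the precision. Named genes were those on all 24 arrays, the 8 channels the study's text or supplementary tables name, 21 channels known from blood cells, members with an adjusted p under 0.05 and the 3 with the smallest p in each comparison. Some of these genes are counted but not reported here by name. Non-overlapping, near-threshold and other genes were named after their values were seen. The members and lists were chosen with earlier results of these data known. The approximate folds of dim probes used Cy3 signals after Aquantile normalization, open to dye bias since no dyes were swapped. Alternatives covered normalization, filters, slide and replicate blocks, weights, probe choice and left-out arrays. Correlations between arrays over all probes were -0.158 or higher.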

Additional observations from a re-analysis of the deposited data

Results flagged for a closer look

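In 150 sets of 4 arrays (25 named channel genes in 6 groups), 13 held an array far from the other 3 by Dixon's criterion; chance alone flags about 1 in 20 sets. C-G1 replicate 2 stood apart for Cacna1i (-0.83, others -0.27 to -0.20), Kcnd3 (-1.19, others -0.27 to -0.22) and, upwards, Kcng1 (0.98, others 0.09 to 0.22). C-G0 replicate 1 did so for Clcn7 (0.75, others -0.22 to -0.10) and Scn7a (0.30, others -0.35 to -0.24). C-G2 replicate 4 did so for Kcng2 (-2.09, others -0.24 to 0.11), Kcnj12 (-1.12, others -0.44 to -0.33) and Scn7a (-0.29, others 0.04 to 0.09), all dim probes.

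Single arrays stood apart for Clcn3 (LPS-G2 replicate 3, 0.58, others -0.54 to -0.38), Kcnk6 (LPS-G2 replicate 4, 0.42, others -0.47 to -0.35), Cacna1g (LPS-G2 replicate 2, 0.051, others 0.22 to 0.25), Kcnab1 (LPS-G1 replicate 1, -0.33, others 0.19 to 0.28) and Kcnk5 (C-G1 replicate 3, -0.11, others -0.74 to -0.63). All are log2 Cy3/Cy5.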

How the results depend on the processing

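The 13 channel genes detected on every array became 34 with the positive-and-significant flag, 35 in the reference channel and 21 at 20 or more arrays. They became 22 on slide 1 alone and 27 on slide 3 alone. On slide 2 alone, the slide with the fewest channel genes per array, the count stayed at 13. It was 13 to 15 when any 1 array was left out. Shares of named genes under these settings were not computed, except for the reference channel (45.2%). The 3 calls in LPS-G1 against LPS-G0 became 0 with Cy3 signal alone, no filter on dim probes, the slide as a block, or all 24 arrays in the fit. They also became 0 by Tukey's test or when the LPS-G0 arrays with conflicting labels were left out. The count was 7 with normexp and loess and 12 with array weights. Leaving out 1 array gave 0 to 6 (0 without LPS-G0 replicates 1, 2 or 4 or LPS-G1 replicates 2, 3 or 4, each alone, and 6 without LPS-G1 replicate 1). In LPS-G0 against C-G0 the count of 0 became 7 with array weights and 0 to 5 without 1 array (5 without C-G0 replicate 1), and in C-G1 against C-G0 0 to 2 (2 without C-G0 replicate 4). The other 6 counts of 0 stayed at 0 under every alternative run. Calls under the alternatives were counted among channel genes only. The shares of all probes called were not computed, so these counts have no background beside them.

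With the replicate number as a block, LPS-G1 against LPS-G0 gave 6 calls and C-G1 against C-G0 gave 2, again without a share of all probes. The numbers were not taken to pair the rats: same-numbered deviations correlated at -0.14 to 0.07 in the former and -0.10 to 0.43 in the latter.

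Of 364 recalculations of 28 named differences, 340 kept direction and side of the threshold, 19 lost and 3 gained a call, and 2 turned sign. Both turns were in LPS-G2 against C-G2: Kcna3 to 0.026 with normexp and loess and Cacna1g to -0.37 with Cy3 signal alone. All 19 losses fell on the 3 differences called in LPS-G1 against LPS-G0. Of 14 recalculations each, Cacna1g lost its call in 6, Clcn7 in 6 and Kcnma1 in 7. The other differences had no call to lose, so keeping their side of the threshold says little. The deposited log ratios, which also served as an alternative, were identical to the values used. Among 272 fits without 1 array, 0 turned sign. Counts of genes lowest in C-G1 or highest in LPS-G0 were recomputed without doubted arrays after the data were seen. The cause of these shifts was not tested.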
